A study of Mus musculus with 6 samples.

Results

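The NF-kB feedback and TNF response genes are 10 genes that NF-kB activity switches on and most of which act back on the pathway: Tnf, Nfkbia, Nfkbie, Nfkbiz, Tnfaip3, Zc3h12a, Birc3, Relb, Nfkb2, and Icam1. They were taken by their exact gene symbols from the 26167 genes of the expression tables, by a rule that uses no measured value, although the list was drawn up with earlier results of these data known. All 10 were found, and all 10 were among the 16513 genes with enough reads to be tested. RNA-seq was performed on whole tumors grown from Hepa1-6, a mouse hepatoma cell line, after subcutaneous injection into female C57BL/6J mice that were 6 to 8 weeks old when purchased. The 3 control tumors (numbered 1, 3, and 4 by the labels) were compared with 3 tumors (numbered 2, 3, and 4) from mice given Sora (sorafenib), an inhibitor of several kinases, at 10 mg/kg ip on days 9, 11, 13, and 15. The injected line, the host strain, and the sex of the mice are shared by both groups, and no transgene or deletion is described for them. Each tumor gave 1 library, with 31073830 to 36205814 counted reads. The day on which these tumors were taken and what the control mice received are not given in the sources used here.

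NF-kB is a family of dimeric transcription factors that IkappaB proteins hold in the cytoplasm. Signals such as TNF activate the IKK kinases, which mark IkappaB for destruction and release the dimers to the nucleus. Among the genes that NF-kB then induces are its own inhibitors, so the response normally limits itself, and in liver tumors the pathway is known for linking inflammation to the survival of tumor cells. A whole tumor holds hepatoma cells, macrophages, lymphocytes, neutrophils, fibroblasts, and vessels, and NF-kB can act in each of them. In such bulk samples, fewer cells of a type and less RNA per cell cannot be told apart.

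Sequence just before the transcription start was examined for 8 of the 10 genes in the RefSeq annotation of GRCm38.p6, which lists 11 start sites for these 8 genes. Windows for Nfkbiz and Relb were not analysed here. The search covered the 250 bases before each start on both strands for the kB consensus, the site that NF-kB dimers bind, which is 10 letters long, and for a short form, GGNNNTTCC, which is 9 letters long and overlaps many of the consensus matches. The consensus was matched in 6 of the 11 windows, which belong to 4 of the 8 genes (Nfkbia, Nfkbie, Tnfaip3, and Nfkb2). Of all 32851 windows of this length in the annotation, 3.9% held it. The short form was matched in 9 of the 11 windows and in 6 of the 8 genes, with Icam1 and Tnf added, against 15.7% of all windows. No match of either form was found for Birc3 or Zc3h12a, which says only that these letters are not in those windows. A 30-base stretch is shown for each of the 6 genes, 5′ to 3′ on the strand of the gene, so that the elements can be compared by eye. The capitals mark the match, which is the consensus in the first 4 and the short form in the last 2.
Nfkbia, chr12:55492657-55492686, minus strand: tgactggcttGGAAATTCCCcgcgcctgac
Nfkbie, chr17:45555584-45555613, plus strand: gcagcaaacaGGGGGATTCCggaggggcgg
Tnfaip3, chr10:19015411-19015440, minus strand: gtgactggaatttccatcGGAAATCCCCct
Nfkb2, chr19:46304688-46304717, plus strand: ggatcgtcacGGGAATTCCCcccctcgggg
Icam1, chr9:21015777-21015806, plus strand: acttcagtttGGAAATTCCtagatcgcagg
Tnf, chr17:35202200-35202229, minus strand: acgacggggaGGAGATTCCttgatgcctgg

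The match in Nfkbia lies 29 to 20 bases before its start and reads as the consensus on the opposite strand. That of Tnfaip3 lies 12 to 3 bases before the start and also reads on the opposite strand. The match of Nfkb2 lies 39 to 30 bases before the start and reads on both strands, and that of Nfkbie lies 106 to 97 bases before it and reads on the same strand. The short forms shown lie 153 to 145 bases before the start of Icam1, which has another at 84 to 76 bases, and 212 to 204 bases before that of Tnf. A match describes the reference sequence, and binding was not measured in these tumors.

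Levels of the 10 genes per length were compared as FPKM, the reads of a gene divided by its length and by the total of the tumor. Over the 6 tumors, the mean level was highest for Icam1 at 91.9 FPKM (78.5 to 97.7) and lowest for Tnf at 4.45 FPKM (3.64 to 4.99). Nfkbia had the next highest level at 57.9 FPKM, and its range overlapped neither that of Icam1 nor that of Nfkbie. Nfkbie (20.2 FPKM), Nfkb2 (15.7 FPKM), Birc3 (15.4 FPKM), Tnfaip3 (14.99 FPKM), and Nfkbiz (13.4 FPKM) followed, and the range of each overlapped that of the next. Relb (6.37 FPKM) and Zc3h12a (6.15 FPKM) overlapped with each other, and neither overlapped with Nfkbiz or Tnf. The order of these levels is a description of 6 whole tumors and does not say which cells made the RNA.

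Differences between the groups were tested with edgeR on the read counts of all 16513 genes, and an adjusted p under 0.05 was taken as a call. Expression is given per tumor as CPM, the count of a gene scaled to a common library size after TMM scaling between tumors, and a change is the log2 fold change of Sora-treated tumors over control tumors with its standard error (SE). Of the 10 genes, 1 was up-regulated (Nfkbiz) and 0 were down-regulated, where 1.94% of all genes tested were called higher and 1.34% lower. At an unadjusted p under 0.05, 1 gene was higher (Nfkbiz) and 1 lower (Nfkbie), and DESeq2 called 1 higher and 0 lower. Over all genes tested, 8.53% were higher and 8.69% lower at an unadjusted p under 0.05. Of the 15231 genes to which it gave an adjusted p, DESeq2 called 4.11% higher and 3.78% lower. By sign alone, 5 of the 10 changes were above 0 and 5 below, with a median log2 fold change of 0.03. Over all genes tested the median was -0.0004, with 8244 genes higher and 8269 lower. The ranges of the groups were apart for 5 of the 10 genes, with Sora-treated tumors higher for 2 (Nfkbiz and Tnfaip3) and lower for 3 (Tnf, Nfkbie, and Birc3). Over all genes tested, 10.6% had Sora-treated tumors wholly above the control tumors and 11.6% wholly below.

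**Figure D1:**
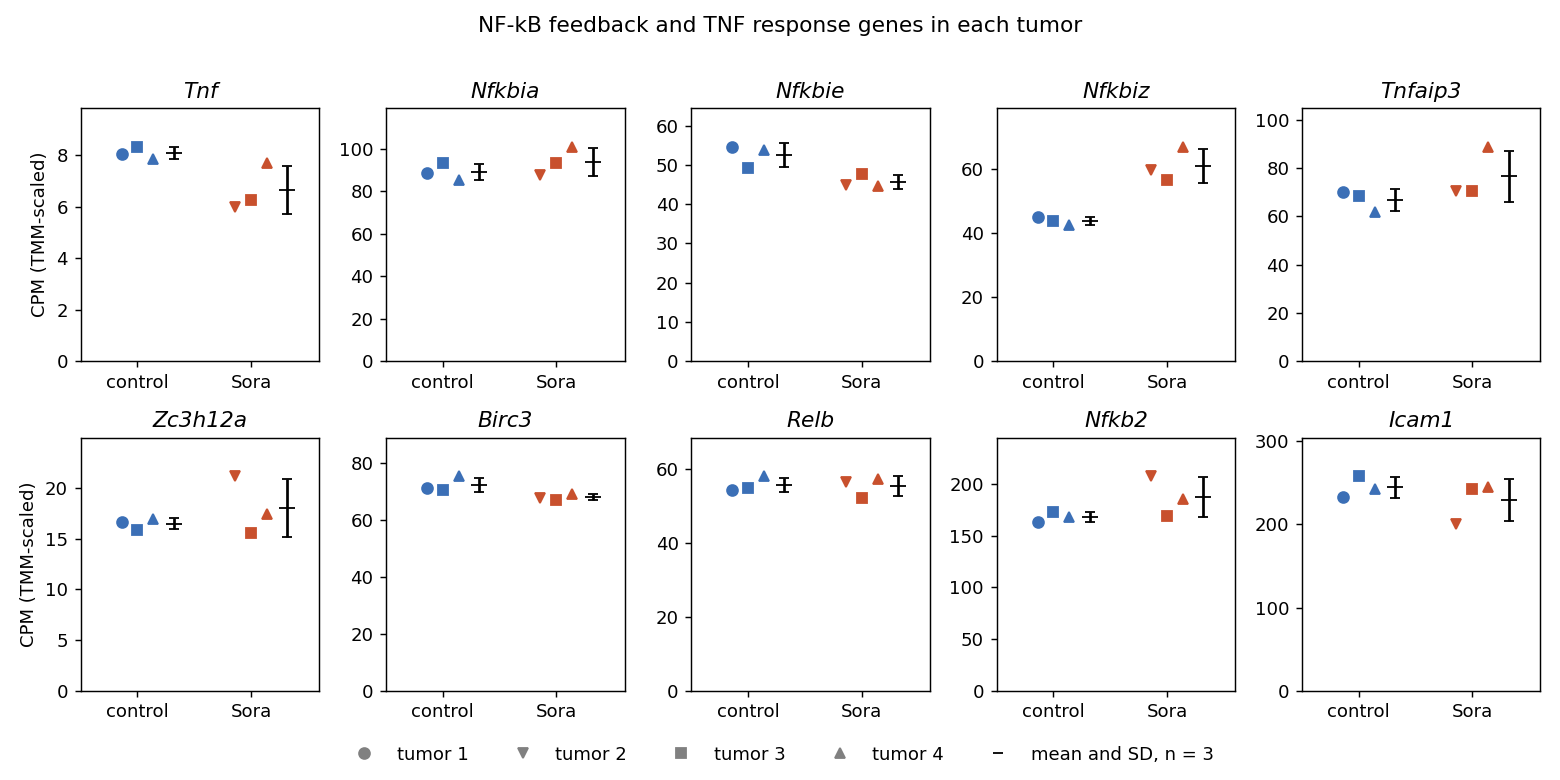
CPM (y axis, from 0) of the 10 genes in 3 control (blue) and 3 Sora-treated (red) tumors, with marker shape for the tumor number and a black bar for the mean and SD of each group (n = 3). Nfkbiz lay at 42.5 to 44.9 CPM in control tumors and 56.4 to 66.8 CPM in Sora-treated tumors, whereas the ranges of Nfkbia, Zc3h12a, Relb, Nfkb2, and Icam1 overlapped.

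The ligand of the group is Tnf (chromosome 17, 35199367 to 35202007, minus strand), the cytokine that starts TNF signaling and is itself an NF-kB target. Tnf was at 8.03, 8.32, and 7.86 CPM in control tumors 1, 3, and 4 and at 5.98, 6.25, and 7.69 CPM in Sora-treated tumors 2, 3, and 4. Each Sora-treated tumor lay below each control tumor, although Sora-treated tumor 4 came close to control tumor 4. These values rest on 187 to 287 reads per tumor, the fewest of any of the 10 genes. The means were 8.07 ± 0.229 CPM (SD, n = 3) and 6.64 ± 0.923 CPM (SD, n = 3). For this log2 fold change of -0.28 (SE 0.15), the adjusted p of edgeR was 0.396, so the difference did not pass the test. The 95% interval ran from -0.62 to 0.06 on the log2 scale.

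Of the 3 IkappaB genes of the group, 1 was called (Nfkbiz). Nfkbia (chromosome 12, 55489409 to 55492647, minus strand) encodes IkappaB-alpha, the inhibitor that NF-kB induces fastest and that carries dimers back out of the nucleus. Nfkbia was at 88.4, 93.2, and 85.4 CPM in control tumors 1, 3, and 4 and at 87.7, 93.1, and 100.8 CPM in Sora-treated tumors 2, 3, and 4. The groups overlapped, and only Sora-treated tumor 4 lay above all control tumors. For Nfkbia the log2 fold change was 0.08 (SE 0.08, adjusted p = 0.678 in edgeR), with a 95% interval from -0.09 to 0.25. With a tumor left out it ran from 0.02 (without Sora-treated tumor 4) to 0.12 (without Sora-treated tumor 2).

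Nfkbie (chromosome 17, 45555700 to 45563169, plus strand) encodes IkappaB-epsilon, another cytoplasmic inhibitor whose induction follows that of IkappaB-alpha more slowly. Nfkbie was at 54.6, 49.1, and 53.9 CPM in control tumors 1, 3, and 4 and at 44.9, 47.8, and 44.6 CPM in Sora-treated tumors 2, 3, and 4. All Sora-treated tumors lay below all control tumors, with Sora-treated tumor 3 nearest to them. The log2 fold change of Nfkbie was -0.20 (SE 0.08), with an unadjusted p of 0.0231 and an adjusted p of 0.196 in edgeR. It thus missed the threshold once all genes tested were taken into account.

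Nfkbiz (chromosome 16, 55811375 to 55838954, minus strand) encodes IkappaB-zeta, an atypical family member that works in the nucleus and is known as a cofactor for a later set of NF-kB targets, Il6 and Lcn2 among them. Nfkbiz was at 44.9, 43.6, and 42.5 CPM in control tumors 1, 3, and 4 and at 59.6, 56.4, and 66.8 CPM in Sora-treated tumors 2, 3, and 4. All Sora-treated tumors lay above all control tumors, the lowest of them being tumor 3 and the highest tumor 4. The means were 43.7 ± 1.22 CPM (SD, n = 3) in control tumors and 61.0 ± 5.33 CPM (SD, n = 3) in Sora-treated tumors. Nfkbiz rose by 39.5%, with a log2 fold change of 0.48 (SE 0.08, 95% interval 0.30 to 0.66, adjusted p = 0.016 in edgeR). It was higher in 3 of 3 Sora-treated tumors. On the FPKM scale the means were 11.3 ± 0.507 (SD, n = 3) and 15.6 ± 1.02 (SD, n = 3).

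The direction of Nfkbiz was the same under all 18 other ways of fitting that were tried, with log2 fold changes from 0.41 to 0.53 and adjusted p from 7.87e-05 to 0.138. It stayed under the threshold in 13 of the 18. The call was lost when control tumor 4 (adjusted p = 0.055 in edgeR), Sora-treated tumor 2 (0.052), or Sora-treated tumor 4 (0.096, log2 fold change 0.41) was left out. It was also lost with the tumor number as a block (0.111 in edgeR) and in limma on log2(FPKM + 1) without a filter (0.138). DESeq2 gave Nfkbiz an adjusted p of 7.87e-05 on all 6 tumors and 0.0031 on the 5 tumors of the count table used here, which lacks Sora-treated tumor 4.

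**Figure D2:**
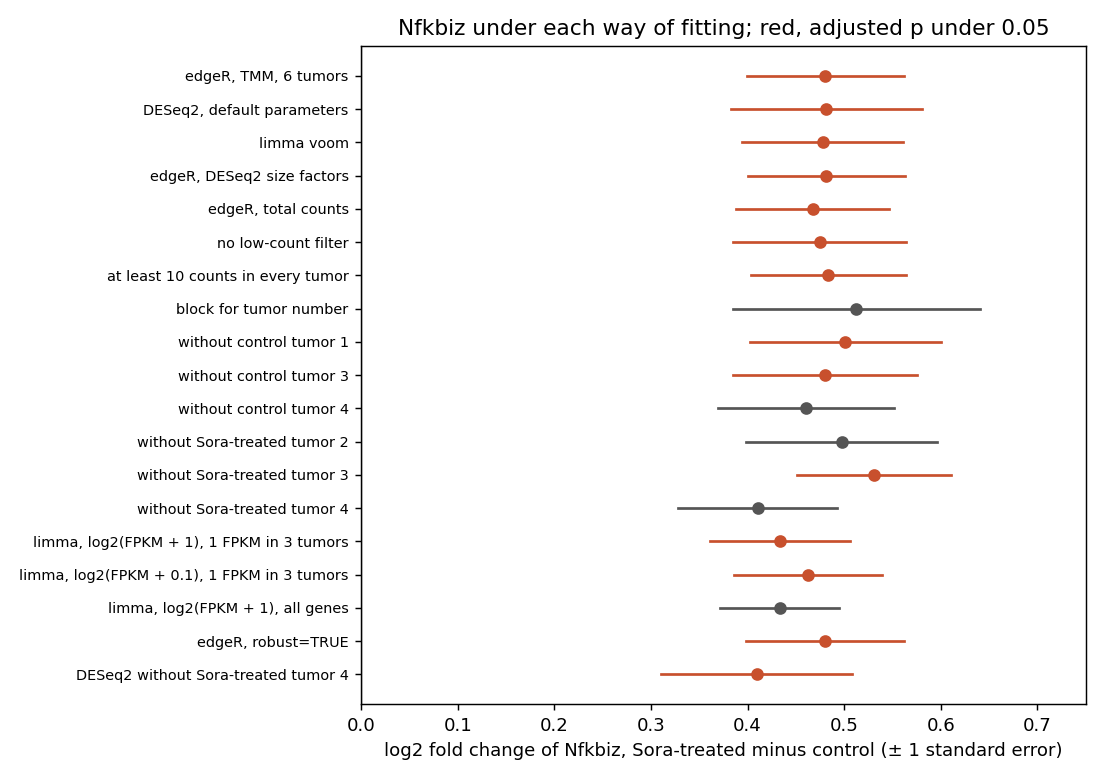
Log2 fold change of Nfkbiz (x axis, with bars of 1 SE) in the edgeR fit of 6 tumors and under 18 alternatives (y axis), red where the adjusted p was under 0.05. All points lie between 0.41 and 0.53, and 5 of the 18 alternatives are grey.

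Whether Nfkbiz moved apart from the other inhibitors was examined by its ratio to them within each tumor, a comparison chosen after the values were seen. The log2 ratio of Nfkbiz to Nfkbia, in CPM, was -0.98, -1.09, and -1.01 in the control tumors and -0.56, -0.72, and -0.59 in the Sora-treated tumors, so the groups were apart and the mean ratio was higher by 0.40. The ratio of Nfkbiz to Nfkbie was higher by 0.68, and its ratio to Zc3h12a by 0.36. Permuting the group labels exactly, in all 20 arrangements, gave a two-sided p of 0.1 for each of the 3 ratios. That is the smallest value this exact test can reach with 3 tumors per group, so none could pass 0.05.

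Among the enzymes of the group, those encoded by Tnfaip3 and Zc3h12a end NF-kB signaling or the life of its transcripts. Tnfaip3 (chromosome 10, 19000910 to 19015410, minus strand) encodes A20, a ubiquitin-editing enzyme that shuts off signaling below the TNF receptor. Tnfaip3 was at 70.1, 68.6, and 61.6 CPM in control tumors 1, 3, and 4 and at 70.5, 70.5, and 88.8 CPM in Sora-treated tumors 2, 3, and 4. The groups were apart by a small margin, and Sora-treated tumors 2 and 3 were nearly level with control tumor 1. The log2 fold change of Tnfaip3 was 0.20 (SE 0.10, adjusted p = 0.355 in edgeR), and without Sora-treated tumor 4 it was 0.08.

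Zc3h12a (chromosome 4, 125118414 to 125127881, minus strand) encodes Regnase-1, an endonuclease known to cut inflammatory transcripts, including those of Il6 and of Nfkbiz. Zc3h12a was at 16.6, 15.8, and 17.0 CPM in control tumors 1, 3, and 4 and at 21.1, 15.5, and 17.4 CPM in Sora-treated tumors 2, 3, and 4. Sora-treated tumor 2 was the highest and tumor 3 the lowest of all 6, so the groups overlapped. Zc3h12a had a log2 fold change of 0.13 (SE 0.12, adjusted p = 0.655 in edgeR), and without Sora-treated tumor 2 it was -0.0005.

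Birc3 (chromosome 9, 7847468 to 7873205, minus strand) encodes cIAP2, a ubiquitin ligase of the TNF receptor complex that protects cells from death and keeps the noncanonical NF-kB kinase low. Birc3 was at 71.1, 70.5, and 75.3 CPM in control tumors 1, 3, and 4 and at 67.6, 67.1, and 69.2 CPM in Sora-treated tumors 2, 3, and 4. The groups were apart with Sora-treated tumors lower, by a gap smaller than the spread of the control tumors. On the log2 scale the difference for Birc3 was -0.09 (SE 0.07, adjusted p = 0.565 in edgeR), and -0.06 without control tumor 4.

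Relb and Nfkb2 encode the partners of the noncanonical dimer, RelB and p100, the precursor of p52. Relb (chromosome 7, 19606217 to 19629438, minus strand) was at 54.3, 54.8, and 57.9 CPM in control tumors 1, 3, and 4 and at 56.5, 52.2, and 57.1 CPM in Sora-treated tumors 2, 3, and 4. Its groups overlapped almost fully, with a log2 fold change of -0.01 (SE 0.07, adjusted p = 0.967 in edgeR) and a 95% interval from -0.17 to 0.15. The sign of Relb turned to 0.02 without control tumor 4 and to 0.03 without Sora-treated tumor 3. Nfkb2 (chromosome 19, 46300994 to 46312400, plus strand) was at 163.1, 172.9, and 168.6 CPM in control tumors 1, 3, and 4 and at 207.5, 168.9, and 185.8 CPM in Sora-treated tumors 2, 3, and 4. The groups overlapped through Sora-treated tumor 3, and the other Sora-treated tumors lay above all control tumors. Nfkb2 had a log2 fold change of 0.16 (SE 0.08, adjusted p = 0.391 in edgeR), which was 0.08 with Sora-treated tumor 2 left out and 0.22 with tumor 3 of that group left out. Nfkb2 overlaps Psd and another gene on the opposite strand in the GENCODE annotation of GRCm38, and whether the counting used strand is not given in the sources used here.

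Icam1 (chromosome 9, 21015940 to 21028814, plus strand) encodes an adhesion molecule that leukocytes bind and that TNF induces on endothelium and other cells. Icam1 was at 232.8, 257.7, and 242.9 CPM in control tumors 1, 3, and 4 and at 200.8, 242.9, and 245.2 CPM in Sora-treated tumors 2, 3, and 4. Only Sora-treated tumor 2 lay outside the control range. The log2 fold change of Icam1 was -0.09 (SE 0.09, adjusted p = 0.679 in edgeR), with a 95% interval from -0.29 to 0.11, and without Sora-treated tumor 2 it was -0.0011. An antisense gene overlaps Icam1, so reads of the pair may not have been told apart.

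**Figure D3:**
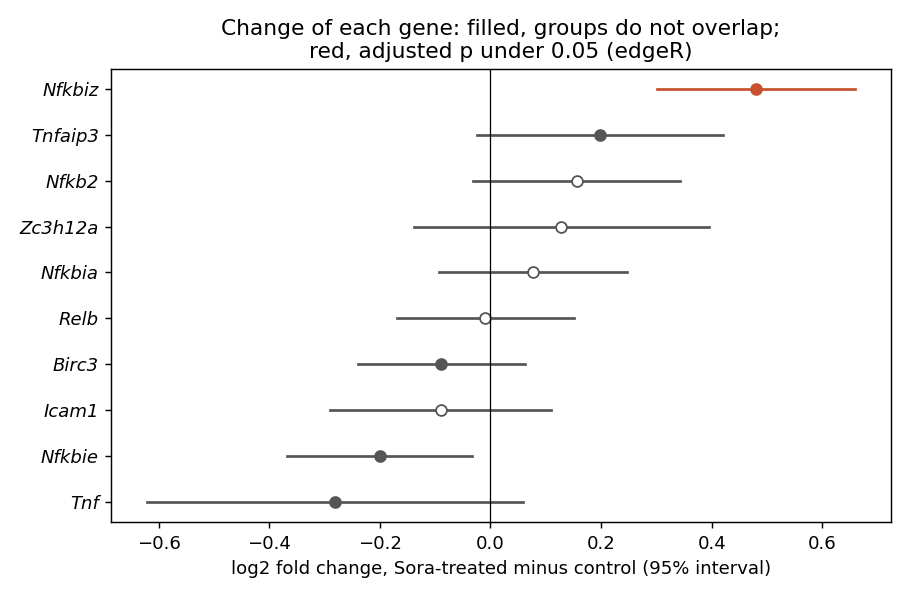
Log2 fold change (x axis, Sora-treated minus control, with 95% intervals from edgeR) of the 10 genes (y axis, ordered by change), filled where the ranges of the groups are apart and red where the adjusted p was under 0.05. Nfkbiz stands at 0.48 with an interval from 0.30 to 0.66, and the other 9 lie between -0.28 and 0.20.

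The Sora-treated tumors differed among themselves in these genes. Within that group, tumor 4 was the highest of the 3 for 7 of the 10 genes and tumor 3 the lowest for 6, whereas in the control group each tumor was the highest for 3 or 4 genes and the lowest for 3 or 4. The coefficient of variation between Sora-treated tumors ran from 1.57% for Birc3 to 15.8% for Zc3h12a, and that between control tumors from 2.79% for Nfkbiz to 6.78% for Tnfaip3. The choice of tumors bears on the whole comparison as well: with Sora-treated tumor 4 left out, edgeR called 4 genes higher and 1 lower of all genes tested, whereas DESeq2 on the same 5 tumors called 278 and 227. Leaving out Sora-treated tumor 3 instead in edgeR gave 574 higher and 571 lower, against 321 and 222 with all 6. Nfkbie, Tnf, Birc3, Tnfaip3, Nfkbia, Relb, Nfkb2, Zc3h12a, and Icam1 were called in none of the 18 alternatives.

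The other genes of the pathway were examined as a list of 50 ligands, receptors, adaptors, kinases, subunits, and inhibitors, of which 49 were tested. In edgeR 0 were called higher and 0 lower, with 1 higher and 5 lower at an unadjusted p under 0.05, beside 8.53% and 8.69% of all genes tested. DESeq2 called 1 higher and 2 lower, beside 4.11% and 3.78% of the 15231 genes to which it gave an adjusted p. In either direction, limma voom called 0 of the list. By sign, 15 were higher and 34 lower in Sora-treated tumors, and the median log2 fold change was -0.05, beside -0.0004 over all genes tested. The ranges of the groups were apart for 2 genes with Sora-treated tumors higher and for 8 with them lower, beside 10.6% and 11.6% of all genes tested.

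Neither receptor for TNF itself passed the test. Tnfrsf1a, the receptor found on most cells, was at 198 CPM in control and 207 CPM in Sora-treated tumors on average (log2 fold change 0.07), and Tnfrsf1b, the receptor found mostly on immune and endothelial cells, at 104 and 99.2 CPM (-0.07). Each had an adjusted p of 0.696 in edgeR. Tnfrsf12a, the receptor for TWEAK, was at 128.3, 149.3, and 115.0 CPM in control tumors and at 201.3, 149.6, and 234.9 CPM in Sora-treated tumors. Its groups were apart, but Sora-treated tumor 3 was nearly level with control tumor 3. The log2 fold change of Tnfrsf12a was 0.58 (SE 0.15), and it had the smallest adjusted p of the list, 0.060 in edgeR. The ligand Ltb, a subunit of lymphotoxin that signals to the noncanonical branch, had 30.6 and 27.4 CPM (log2 fold change -0.16, adjusted p = 0.398 in edgeR). The 7 ligands of the list, Ltb included, had a median log2 fold change of -0.33, and 6 of them were lower by sign.

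None of the adaptors and kinases that carry the signal was called by edgeR, with 2 lower and 0 higher at an unadjusted p under 0.05 and 0 called by DESeq2, beside 8.69% and 8.53% of all genes at that unadjusted p. The 11 adaptors and ligases had log2 fold changes from -0.21 to 0.09. Among them, Traf1 had a log2 fold change of -0.02, Traf2 of -0.09, and Ripk1 of -0.05. Birc2, which encodes cIAP1, the close relative of Birc3, was at 64.4, 65.6, and 64.3 CPM in control tumors and at 52.9, 59.4, and 58.3 CPM in Sora-treated tumors. Its groups were apart with Sora-treated tumors lower, as were those of Birc3, at a log2 fold change of -0.19 (adjusted p = 0.208 in edgeR). The 10 kinase genes had log2 fold changes from -0.20 to 0.03. In this list, Chuk (IKK-alpha) was at -0.01, Ikbkb (IKK-beta) at -0.04, Ikbkg (the regulatory subunit NEMO) at -0.10, and Map3k14 (the noncanonical kinase NIK) at -0.01.

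Among the subunits not in the group of 10, Rela (p65) was at 86.8 CPM in control and 90.0 CPM in Sora-treated tumors (log2 fold change 0.05), and Nfkb1 (p105, the precursor of p50) at 155 and 169 CPM (0.13). Rel, the subunit c-Rel that lymphocytes and myeloid cells use most, was at 25.7, 26.4, and 25.2 CPM in control tumors and at 22.1, 20.5, and 20.4 CPM in Sora-treated tumors. The groups of Rel were apart, with a log2 fold change of -0.29 (SE 0.09, adjusted p = 0.091 in edgeR), which missed the threshold. The 11 inhibitors of this list included Nfkbib (log2 fold change -0.08), Nfkbid (-0.15), Bcl3 (-0.03), Tnip1 (-0.09), and the deubiquitinase Cyld (-0.02). Of these 11, 9 were lower by sign and 0 were called by edgeR. Chosen after their values were seen, Tnip3, a partner of A20, had 6.79 and 3.92 CPM (log2 fold change -0.79, adjusted p = 0.092 in edgeR), and Tnfrsf11a, the receptor for RANKL, had 11.5 and 7.73 CPM (-0.57, 0.104). DESeq2 called these last 2 genes lower and Tnfrsf12a higher.

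Further targets of NF-kB were examined as a list of 43 genes, of which 42 were tested. In edgeR 4 of them were up-regulated (Cxcl2, Cxcl3, Ier3, and Lcn2) and 2 were down-regulated (Vcam1 and Cd83), beside 1.94% and 1.34% of all genes tested. DESeq2 called 9 higher and 3 lower, these 6 included, beside 4.11% and 3.78% of the 15231 genes to which it gave an adjusted p. At an unadjusted p under 0.05 in edgeR, 14 were higher and 6 lower, beside 8.53% and 8.69% of all genes tested. By sign, 23 were higher and 19 lower, with a median log2 fold change of 0.11. The ranges of the groups were apart for 11 genes with Sora-treated tumors higher and for 5 with them lower, beside 10.6% and 11.6% of all genes tested.

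The 4 genes called higher were 2 chemokines, 1 secreted protein, and 1 survival gene. Cxcl2, a chemokine that draws neutrophils, was at 3.55, 2.92, and 3.81 CPM in control tumors 1, 3, and 4 and at 18.7, 5.06, and 13.2 CPM in Sora-treated tumors 2, 3, and 4. All Sora-treated tumors were higher, with tumor 3 well below tumors 2 and 4. Cxcl2 rose by 1.84 on the log2 scale (SE 0.37, adjusted p = 0.028 in edgeR). Cxcl3, a related chemokine, had 38.4 ± 1.08 and 54.4 ± 10.2 CPM (SD, n = 3), a rise of 0.50 on the log2 scale (SE 0.12, adjusted p = 0.047 in edgeR). Lcn2, an iron-sequestering protein, was at 2.09, 2.27, and 2.25 CPM in control tumors and at 5.85, 5.36, and 4.19 CPM in Sora-treated tumors. Its log2 fold change was 1.22 (SE 0.22, adjusted p = 0.019 in edgeR). Ier3, an early response gene that modulates cell survival, had 57.6 ± 6.83 and 76.8 ± 5.53 CPM (SD, n = 3), a rise of 0.42 on the log2 scale (SE 0.10, adjusted p = 0.043 in edgeR).

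The 2 genes called lower encode cell surface proteins. Vcam1, an adhesion molecule that binds leukocyte integrins and that TNF induces together with Icam1, was at 199 ± 12.2 CPM in control and 154 ± 7.02 CPM in Sora-treated tumors (SD, n = 3), a fall with a log2 fold change of -0.37 (SE 0.08, adjusted p = 0.029 in edgeR). Cd83, a surface protein of activated dendritic and B cells, fell likewise, with 30.9 ± 0.865 and 22.8 ± 2.13 CPM (SD, n = 3), a log2 fold change of -0.44 (SE 0.09), and an adjusted p of 0.031 in edgeR. These calls depended on which tumors were in the fit. In edgeR, none of the 6 was called without control tumor 1 (lowest adjusted p 0.054), control tumor 4 (0.056), Sora-treated tumor 2 (0.087), or Sora-treated tumor 4 (0.066), 3 were called without control tumor 3 (Vcam1, Ier3, and Lcn2), and all 6 were called without Sora-treated tumor 3. DESeq2 without Sora-treated tumor 4 did call Lcn2 (adjusted p = 0.0001), Vcam1 (0.0084), and Cd83 (0.044). The way of fitting mattered too. Cxcl2 was called in 6 of the 18 alternatives and lost its call with limma voom (adjusted p = 0.097), with robust=TRUE in edgeR (0.112), and in the limma fits of FPKM (0.076 to 0.276). Cxcl3 was called in 7 (0.057 with limma voom), Cd83 in 9, Ier3 in 9, Vcam1 in 10, and Lcn2 in 12, and each of the 6 kept its sign in all 18.

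Other well-known targets did not pass the edgeR test. Il1b, the cytokine IL-1beta, was at 28.6 and 48.7 CPM on average (log2 fold change 0.77, adjusted p = 0.083 in edgeR), and the acute phase gene Saa3 at 19.3 and 39.0 CPM (1.02, 0.055). For Saa3, 60.5 CPM in Sora-treated tumor 4 stood above 26.4 and 30.2 CPM in tumors 2 and 3. Il6, which is known to need IkappaB-zeta, was at 0.438 and 0.912 CPM (log2 fold change 1.04, adjusted p = 0.221 in edgeR). Bcl2l1, which encodes the survival factor Bcl-xL, was at 131 and 167 CPM (0.35, 0.076) and was called by DESeq2, and the prostaglandin synthase gene Ptgs2 at 7.91 and 10.8 CPM (0.45, 0.278). The chemokine genes Ccl2 (log2 fold change -0.21, adjusted p = 0.232 in edgeR) and Cxcl1 (-0.14, 0.871) had lower means in Sora-treated tumors, as did Nos2 (-0.18, 0.802), the inducible nitric oxide synthase. Cxcl10, an interferon-induced chemokine gene named after its values were seen, had the lowest log2 fold change of the list, -0.48 (adjusted p = 0.058 in edgeR). It was at 128.6 to 139.5 CPM in control and 74.0 to 106.8 CPM in Sora-treated tumors, so its groups were apart, and DESeq2 called it lower. Besides Bcl2l1, DESeq2 called 4 genes higher that did not pass this edgeR test, likewise named after their values were seen. These were Il23a (log2 fold change 0.78, adjusted p = 0.074 in edgeR), Lif (0.40, 0.055), Cflar (0.37, 0.065), and Ptx3 (0.66, 0.104), and the groups were apart for the first 3. Other edgeR fits also called them higher, Lif and Cflar with robust=TRUE and all 4 without a filter on low counts or without Sora-treated tumor 3. Nos2 varied widely between tumors, from 79.6 to 173.5 CPM in the control group. Sod2 had a log2 fold change of -0.06 and Sele of 0.41 (adjusted p = 0.665 in edgeR). Csf3 was not tested, with 1, 2, and 1 reads in control tumors and 7, 2, and 6 reads in Sora-treated tumors.

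**Figure D4:**
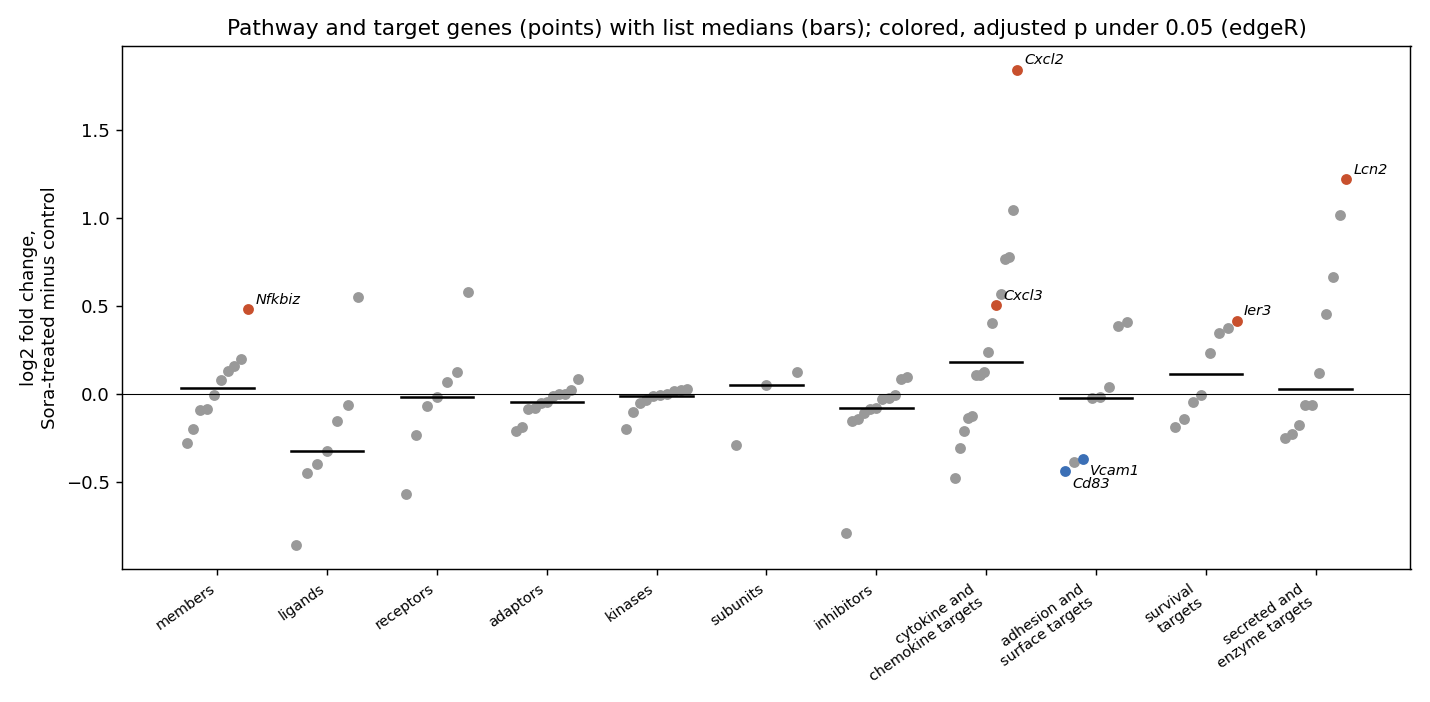
Log2 fold change (y axis, Sora-treated minus control) of each tested gene of the 10 genes (members), of the other pathway genes, and of the further targets (x axis, by role), with black bars for list medians and colors where the adjusted p of edgeR was under 0.05. Nfkbiz, Cxcl2, Cxcl3, Ier3, and Lcn2 are called higher and Vcam1 and Cd83 lower, whereas no ligand, receptor, adaptor, kinase, subunit, or inhibitor outside the 10 is called.

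Markers of the cells that a tumor can hold were measured beside these genes, and their part in the results above was not tested. Calls of single markers are those of edgeR and stand beside 1.94% of all genes tested called higher and 1.34% called lower. The summed CPM of the 12 neutrophil genes was 73.95 to 87.5 in control tumors and 109.6 to 177.0 in Sora-treated tumors, with 7 of 8 tested genes higher by sign and S100a9 and Hdc called higher. Ly6g, a defining neutrophil marker, was under 1 CPM in each tumor. Like Ly6g, the granule genes Mpo, Elane, and Camp had too few reads to be tested. Ngp was the tested gene that was lower by sign (log2 fold change -1.23, adjusted p = 0.695 in edgeR). All 12 macrophage genes were lower by sign (summed CPM 2041 to 2391 against 1722 to 1984, Mertk called lower), as were all 11 T cell genes (286.5 to 319.9 against 224.6 to 245.0, Cd8b1 and Cd6 called lower). The summed CPM was also lower in each Sora-treated tumor for the lists of B cells (18.3 to 20.4 against 15.8 to 17.8), dendritic cells (289.3 to 342.4 against 240.3 to 272.3, most of it Itgax), fibroblasts (8084 to 8267 against 5558 to 6973, Postn called lower), and red blood cells (47.0 to 128.9 against 32.9 to 44.2, Hba-a1 called lower). The summed CPM of the hepatoma list was lower as well (3462 to 4668 against 3012 to 3397), with Alb and Ttr called lower and Apoa1 called higher. By sign, 3 of its 7 tested genes were higher and 4 lower, with a median log2 fold change of -0.09. Afp, a fetal liver gene that Hepa1-6 cells express, was found in every tumor at 655 to 1000 CPM. The groups overlapped for the lists of monocytes, NK cells, endothelium, keratinocytes, and muscle. Of the 8 dendritic cell genes, 6 were lower and 2 higher by sign and 0 were called by edgeR (1 higher and 2 lower at an unadjusted p under 0.05, and 1 called lower by DESeq2), with a median log2 fold change of -0.13. DESeq2 called 4.11% higher and 3.78% lower of the 15231 genes to which it gave an adjusted p. Of the markers, DESeq2 called 3 neutrophil genes higher (Hdc among them, but not S100a9). It called 5 macrophage, 4 T cell, 4 fibroblast, 3 monocyte, 3 red blood cell, and 2 hepatoma genes lower, and Apoa1 was not called.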

How the data were processed

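RNA-seq of 3 control and 3 Sora-treated tumors was analyzed. The authors deposited counts (reads per gene, not normalized) and FPKM (counts divided by gene length and library total). The count table used here holds 5 tumors and the FPKM table all 6. The study's methods name Bowtie2 and GRCm38, whereas the submitters' processing notes list fastp, HISAT2, HTSeq, DESeq2, R 3.2.0, and GRCm39; which of these made the tables was not settled. Gene annotation and use of strand are not given in the sources used here. Counts of Sora-treated tumor 4, not in that table, were recalculated by multiplying its FPKM by the lengths that follow from the other tumors. All recovered values were whole numbers within 0.001 reads (100%, 20951 genes). When each of the other 5 tumors was treated as unknown, its total and all its 20969 to 21229 genes with a length came back exactly. In Sora-treated tumor 4, 342 genes without a length (512 reads, 0.0015%) were set to 0.

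A gene was tested if 3 or more tumors had 10 or more counts (16513 genes), using edgeR 4.0.16 (glmQLFit, glmQLFTest, TMM scaling) in R 4.3.3, with Benjamini-Hochberg adjustment. SE is the log2 fold change divided by the square root of F, and 95% intervals use a t quantile of 2.205. Labels do not say more of the tumors than their group and number. The p-values of edgeR weigh a difference against the spread between these 3 and 3 libraries, estimated with information shared across the genes tested. With totals of 31073830 reads or more, a gene at 1 CPM has about 30 reads, and counting error limits genes below that.

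The 10 genes, the lists of 50 pathway genes and 43 targets, and 13 lists of cell markers were chosen with earlier results of these data known. Named were the 10 genes, 20 pathway and 14 target genes set by symbol, each other list gene with an adjusted p under 0.05, and each called marker (adjusted p of edgeR). Genes named beyond this rule were chosen after their values were seen. Gene places and sequences are those of RefSeq GRCm38.p6, matched by symbol (10 of 10 places). The alternatives were DESeq2 1.42.0, limma 3.58.1 (voom, and log2 of FPKM with a pseudocount of 1 or 0.1, with a filter of 1 FPKM in 3 tumors or none), other scalings and filters, robust=TRUE, a replicate block, and leaving out each tumor. DESeq2 on the 5 tumors of the count table was added after seeing the data. The scripts were tested on simulated data. No cell composition was estimated.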

Additional observations from a re-analysis of the deposited data

How the results depend on the processing

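With 3 tumors per group, the spread between tumors limits differences as small as those of most of the 10 genes, and counting error bears most on Tnf, with 187 to 287 reads per tumor. Among the fits of 16 genes (the 10 genes and the 6 called targets) under the 18 alternatives, 288 in all, 225 kept their direction and side of the threshold, 60 kept the direction but were no longer under it, and 3 changed sign. Those 3 were Relb (0.0194 without control tumor 4 and 0.0283 without Sora-treated tumor 3, range -0.0331 to 0.0283 over tumors left out) and Zc3h12a (-0.0005 without Sora-treated tumor 2, range -0.0005 to 0.2223). Only genes called in the edgeR fit of all 6 tumors could lose a call, so all 60 come from Nfkbiz and the 6 called targets. Of the 18 alternatives, Nfkbiz was called in 13, Lcn2 in 12, Vcam1 in 10, Cd83 and Ier3 in 9 each, Cxcl3 in 7, and Cxcl2 in 6. The cause was not tested for any of these changes.

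Counts of calls moved more. Against 321 genes higher and 222 lower in all, DESeq2 called 626 and 576, no filter on low counts 570 and 577, limma on log2(FPKM + 1) 180 and 106, on log2(FPKM + 0.1) 166 and 86, and on log2(FPKM + 1) without a filter 0 and 0. Leaving out 1 tumor gave 4 to 574 higher and 1 to 571 lower. Of the 10 genes, 1 was called higher, 0 in limma on log2(FPKM + 1) without a filter, and 0 to 1 with a tumor left out. Of the pathway genes, 0 were called in each direction, but 1 higher and 2 lower with DESeq2 or without a filter, and 0 to 1 higher and 0 to 2 lower with a tumor left out. Of the targets, 4 were called higher, but 9 with DESeq2, 2 with voom, 11 without a filter, 1 with either FPKM pseudocount, 0 with FPKM and no filter, 2 with DESeq2 on the 5 tumors of the count table (Lcn2 and Saa3), and 0 to 12 with a tumor left out. The 2 targets called lower became 0 in each FPKM fit and 0 to 3 with a tumor left out. The median of the 10 genes, 0.0336, was -0.0058 with DESeq2 on the 5 tumors of the count table, and -0.0045 to 0.0544 with a tumor left out. Other scalings, robust=TRUE, and the stricter filter left each of these counts within 1.5 times, although with robust=TRUE only 3 of the 4 targets called higher were among its 5 (Cxcl2 was lost).

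With the tumor number as a replicate block, 80 genes were called higher and 45 lower in all, 0 of the 10 genes were called (Nfkbiz had an adjusted p of 0.111 at a log2 fold change of 0.51), 1 target was called higher and 0 lower (Saa3, at an adjusted p of 0.034, and none of the 6 called without the block), and the median of the 10 genes was -0.0157. The labels do not say whether the numbers pair the tumors. Deviations of same-numbered tumors correlated at -0.064 and -0.066 and those of other pairs at -0.114 to 0.195. Only numbers 3 and 4 occur in both groups, which is too few pairs to decide whether same-numbered tumors belong together.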

Other observations

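Families named by symbol around these genes were looked at after the values were seen. Of 18 tested receptors of the TNF receptor family (Tnfrsf), 11 were higher and 7 lower by sign, and 3 were called higher and 0 lower by edgeR, beside 1.94% and 1.34% of all genes tested. DESeq2 called 4 higher and 2 lower (Tnfrsf11a and Tnfrsf14), beside 4.11% and 3.78% of the 15231 genes to which it gave an adjusted p. Tnfrsf22, a decoy receptor for the death ligand TRAIL in mice, was at 90.6, 94.2, and 119.7 CPM in control tumors 1, 3, and 4 and at 229.0, 158.6, and 235.5 CPM in Sora-treated tumors 2, 3, and 4. All Sora-treated tumors were higher, with a log2 fold change of 1.03 (SE 0.15, adjusted p = 0.012 in edgeR). Without Sora-treated tumor 4 its adjusted p was 0.068 in edgeR and 9.43e-06 in DESeq2. Tnfrsf11b, which encodes osteoprotegerin, the decoy receptor for RANKL, rose from 57.8 ± 10.03 to 90.2 ± 8.45 CPM (SD, n = 3), a log2 fold change of 0.64 (SE 0.12, adjusted p = 0.021 in edgeR). Tnfrsf26, a receptor gene of the same family, rose from 14.7 ± 0.51 to 24.4 ± 6.22 CPM (SD, n = 3), a log2 fold change of 0.72 (SE 0.16, adjusted p = 0.039 in edgeR). In edgeR, the call of Tnfrsf11b was lost without control tumor 1 (0.068), control tumor 4 (0.074), Sora-treated tumor 2 (0.074), or Sora-treated tumor 4 (0.116), and that of Tnfrsf26 without any 1 of the tumors except Sora-treated tumor 3 (0.090 to 0.172). DESeq2 without Sora-treated tumor 4 gave 0.0054 for Tnfrsf11b and 0.062 for Tnfrsf26. With the tumor number as a block, the adjusted p in edgeR was 0.165 for Tnfrsf11b and 0.150 for Tnfrsf26. In limma, Tnfrsf26 had 0.059 with voom and 0.081 to 0.267 in the fits of FPKM. On FPKM without a filter, limma gave 0.158 for Tnfrsf11b and 0.153 for Tnfrsf22.

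Of 16 tested ligands of the TNF family, 2 were higher and 14 lower by sign, with a median log2 fold change of -0.36 and 0 called by edgeR, and 2 lower at an unadjusted p under 0.05, beside 8.69% of all genes tested. DESeq2 called 1 lower, Tnfsf10, the death ligand TRAIL, which was at 23.1, 22.2, and 23.1 CPM in control tumors and at 13.9, 19.8, and 14.5 CPM in Sora-treated tumors (log2 fold change -0.51, adjusted p = 0.062 in edgeR). Of 12 tested Toll-like receptors, which also signal to NF-kB, 10 were lower by sign and 1 was called lower, beside 1.34% of all genes tested. This was Tlr12, which fell from 22.1 ± 0.817 to 14.7 ± 2.41 CPM (SD, n = 3), a log2 fold change of -0.58 (SE 0.12, adjusted p = 0.031 in edgeR), and its edgeR call was lost without any 1 of the tumors except Sora-treated tumor 3 (0.057 to 0.129). DESeq2 without Sora-treated tumor 4 called it (adjusted p = 0.0305). The call of Tlr12 was also lost with the tumor number as a block (adjusted p = 0.212 in edgeR) and in the limma fits of FPKM (0.055 to 0.205). No gene of the Traf family (7 tested) or of the Zc3h12 family (4 tested) was called by edgeR.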
